A study of Mus musculus with 2 samples.

Results

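The cells described here are CD8 T cells of the pancreatic islets of NOD mice that held few or no transcripts of Ccl5, the gene of a chemokine that CD8 T cells make after they have met antigen. They were chosen by counts of unique molecular identifiers (UMIs), each of which stands for 1 captured transcript. Barcodes entered if they had 200 or more genes detected and no more than 10% of their UMIs from mitochondrial genes. A CD8 T cell held at least 2 UMIs over the co-receptor genes Cd8a and Cd8b1 and at least 1 over the CD3 genes Cd3d, Cd3e and Cd3g. It held no UMI of Cd4, of the B cell gene Cd79a or of the plasmacytoid dendritic cell gene Siglech, and at most 1 over the proliferation genes Mki67, Top2a, Birc5, Cdk1 and Rrm2. A Ccl5-low cell was such a cell with at most 3 Ccl5 UMIs. There were 248 of them among 3925 barcodes, 61 of 1113 at 7 weeks and 187 of 2812 at 12 weeks. They were set against 202 Ccl5-high cells, CD8 T cells with at least 10 Ccl5 UMIs, of which 53 were from 7 weeks and 149 from 12 weeks. Because measured values of these genes chose the cells, the genes of the rule are no findings, and each difference between the classes is given as a description with no test.

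The study profiled single immune cells that infiltrate the islets of female NOD/ShiLtJ mice, an inbred strain that develops autoimmune diabetes without intervention. Leukocytes were sorted by flow cytometry for CD45.1, the NOD form of a surface protein of all leukocytes, from mice aged 7 weeks or 12 weeks. No treatment, transgene or induced mutation is named for either age. A single droplet library (10x Genomics Chromium, 3′ chemistry) stands for each age, and how many mice a library holds is not stated in the labels. The spread between mice therefore could not be measured, age and library cannot be told apart, and every 95% interval below covers counting error only.

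A naive CD8 T cell has left the thymus and has not yet met its antigen. It recirculates between blood and lymphoid organs with the help of the chemokine receptor Ccr7 and the egress receptor S1pr1, and its quiescent state rests on transcription factors such as Lef1, Tcf7 and Foxp1. After activation CD8 T cells lose much of this programme and gain granzymes, chemokines such as Ccl5, and receptors for inflamed tissue. In the NOD islet, CD8 T cells take part in the destruction of insulin-producing beta cells.

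The matrices held 8701184 UMIs at 7 weeks and 19288252 at 12 weeks, and the filters removed 4 and 8 barcodes. Median depth was 5249 and 4904 UMIs per Ccl5-low cell, 5920 and 5339 per Ccl5-high cell, and 4973 and 4597 per B cell (at least 3 Cd79a UMIs and no CD3 UMI, 113 and 490 cells). B cells serve as the reference for free RNA, since they should lack T cell transcripts. The libraries shared 2 barcode sequences, none of which was a Ccl5-low cell. Few Ccl5-low cells lay at the edge of the CD8 rule, with 6 and 16 cells at exactly 2 Cd8 UMIs and a median of 7 and 6 Cd8 UMIs per cell. Doublets were not removed. A score against simulated doublets marked 10 and 63 barcodes, none of them a Ccl5-low cell.

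CD8 T cells fell at both ends of the Ccl5 scale at both ages. At 7 weeks, 32 of 122 CD8 T cells held no Ccl5 UMI, 15 held 1, 14 held 2 to 3, 8 held 4 to 9, 9 held 10 to 29 and 44 held 30 or more. At 12 weeks, the same bins held 117, 51, 19, 16, 20 and 129 of 352 cells. The threshold therefore cut where cells were sparse, with 3 and 6 cells at exactly 3 UMIs just inside it and 1 and 6 cells at exactly 4 just outside. Low counts of Ccl5 were also found in B cells, of which 49 of 113 and 174 of 490 held at least 1 UMI and none held 10 or more. Ccl5-low cells held 127 counts of Ccl5 per 1000000 UMIs of the class (CPM) at 7 weeks and 97.5 at 12 weeks, beside 107 and 80.1 CPM in B cells and 17050 and 20690 CPM in Ccl5-high cells.

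**Figure D1:**
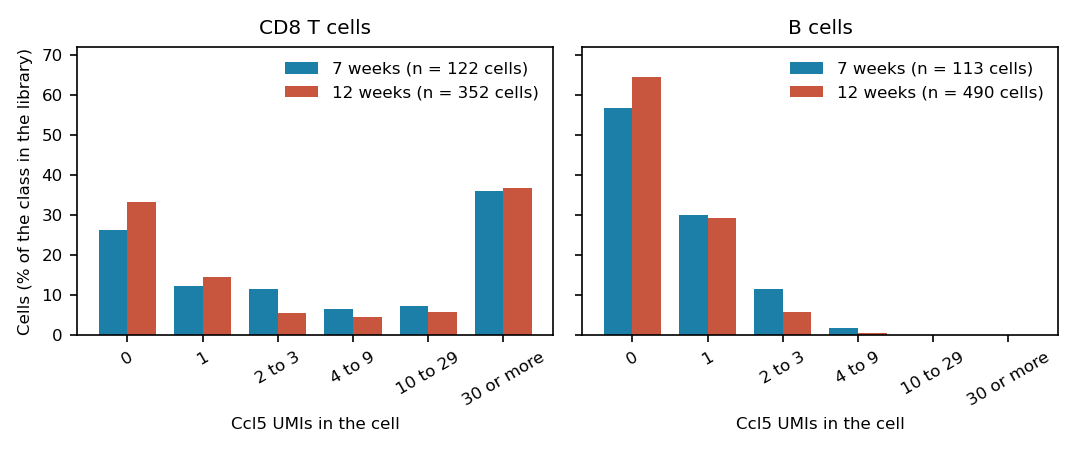
Percentage of CD8 T cells (left) and B cells (right) in each library by the number of Ccl5 UMIs in the cell, with 7 weeks in blue and 12 weeks in red. CD8 T cells pile up at 0 and at 30 or more UMIs (44 and 129 cells in the last bin), and no B cell held 10 or more.

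Ccl5-low cells were 50% of the CD8 T cells in the 7-week library (exact binomial interval 40.8 to 59.2) and 53.1% in the 12-week library (47.8 to 58.4). The difference of 3.13 percentage points had a Newcombe interval from -7.05 to 13.3, so no difference was detectable at this number of cells. With every cell thinned to 3000 UMIs before the classes were assigned, the shares were 51.7% and 55.5%. Of all kept barcodes, Ccl5-low cells made up 5.50% (4.23 to 7.01) and 6.67% (5.77 to 7.66).

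The genes given as markers of the population were higher in Ccl5-low cells. They came with the label, which was chosen with earlier results of these data known. Their direction is therefore a description and no support for the label. Lef1, a transcription factor of naive and stem-like T cells, stood at 312 CPM (257 to 375) in Ccl5-low cells at 7 weeks and 525 CPM (481 to 573) at 12 weeks. In Ccl5-high cells it stood at 56.7 CPM (34.2 to 88.6) and 55.4 CPM (41.0 to 73.3), a ratio of 5.49 (3.36 to 9.46) and 9.47 (7.06 to 12.98). Lef1 was detected in 62.3% and 82.9% of Ccl5-low cells, 26.4% and 24.2% of Ccl5-high cells, and 6.20% and 2.24% of B cells. The Ccl5-low level was the higher one at both ages, by more than its counting interval.

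Dapl1, a gene expressed in naive and some memory CD8 T cells, stood at 334 CPM (277 to 399) and 485 CPM (442 to 531) in Ccl5-low cells. Ccl5-high cells held 65.7 CPM (41.2 to 99.5) and 29.4 CPM (19.2 to 43.1), giving 5.08-fold (3.21 to 8.40) at 7 weeks and 16.5-fold (11.1 to 25.5) at 12 weeks. It was close to absent from B cells, with 0 UMIs in 113 cells and 1 UMI in 490 cells. Not every Ccl5-low cell held it without thinning: 28 of 61 and 107 of 187 cells had a Dapl1 UMI.

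Ccr9, the receptor for a chemokine of the thymus and small intestine, stood at 35.8 CPM (19.1 to 61.3) at 7 weeks and 91.3 CPM (73.3 to 112) at 12 weeks, from 13 and 89 UMIs. Ccl5-high cells held 2 UMIs and 1 UMI, which gives ratios of 6.001 (1.36 to 54.8) and 80.7 (14.1 to 3223). A Ccr9 UMI was found in 14.8% and 31.0% of Ccl5-low cells, in 0 and 0.816% of B cells, and in 0 and 1.07% of CD4 T cells with at most 3 Ccl5 UMIs (172 and 374 cells). At this level and depth a cell can hold the transcript and give no UMI, so these shares count cells with a UMI and not cells that express the gene.

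Cells were also counted by how many of 5 naive markers they held, Dapl1, Lef1, Ccr9, Ccr7 and S1pr1. Tcf7, Klf2 and Il7r were left out of this count. The shares therefore describe the 5 genes and do not show how far the label fits. At least 3 of the 5 were detected in 23 of 61 Ccl5-low cells (37.7%) at 7 weeks and 121 of 187 (64.7%) at 12 weeks. In Ccl5-high cells this held for 3 of 53 (5.66%) and 5 of 149 (3.36%). The median was 2 and 3 markers in Ccl5-low cells and 0 at both ages in Ccl5-high cells. None of the 5 was detected in 9 and 8 Ccl5-low cells and in 27 and 86 Ccl5-high cells, so that most Ccl5-low cells, but not all, held at least 1 of these transcripts. Detection depends on depth, and the deeper class by its median was the Ccl5-high class.

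The 3 marker genes lie at chr3:131110471-131224356 (Lef1), chr2:59484653-59505020 (Dapl1) and chr9:123678439-123784330 (Ccr9) on the plus strand of GRCm38. To show the sequence from which genes with a shared pattern start, 250 bases upstream of a RefSeq start (GRCm38.p6) are printed for each, in lower case with matches to CCACCC, a core of the box bound by KLF factors, or to CTTTGA, a core of the element bound by TCF and LEF factors, in capitals on either strand.
Lef1, chr3:131110047-131110296, plus strand: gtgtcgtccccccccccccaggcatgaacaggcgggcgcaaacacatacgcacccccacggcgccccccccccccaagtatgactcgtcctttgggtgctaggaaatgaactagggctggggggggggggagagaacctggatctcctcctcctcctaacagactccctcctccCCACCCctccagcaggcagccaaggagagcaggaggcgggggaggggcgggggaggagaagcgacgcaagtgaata
Lef1, internal start, chr3:131156044-131156293, plus strand: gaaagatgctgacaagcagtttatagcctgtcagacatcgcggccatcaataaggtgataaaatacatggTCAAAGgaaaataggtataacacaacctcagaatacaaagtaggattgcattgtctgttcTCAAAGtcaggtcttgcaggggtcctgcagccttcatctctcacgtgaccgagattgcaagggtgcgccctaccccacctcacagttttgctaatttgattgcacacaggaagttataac
Dapl1, chr2:59484403-59484652, plus strand: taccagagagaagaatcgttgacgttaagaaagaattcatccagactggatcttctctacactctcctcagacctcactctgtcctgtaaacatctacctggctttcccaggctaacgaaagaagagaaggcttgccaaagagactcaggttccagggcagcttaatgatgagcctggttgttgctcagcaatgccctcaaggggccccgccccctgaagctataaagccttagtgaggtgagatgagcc
Ccr9, chr9:123766961-123767210, plus strand: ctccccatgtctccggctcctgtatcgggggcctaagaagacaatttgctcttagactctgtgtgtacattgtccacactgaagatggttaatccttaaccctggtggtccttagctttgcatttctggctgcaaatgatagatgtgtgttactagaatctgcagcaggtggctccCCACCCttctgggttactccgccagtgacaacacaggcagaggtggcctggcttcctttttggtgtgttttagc
Both TCF/LEF matches upstream of the internal Lef1 start are in the orientation TCAAAG, and the Dapl1 window held neither motif. The Ccr9 window lies inside the gene coordinates given above, because the RefSeq start used for it is not where those coordinates begin. Of 32851 upstream windows of that length, 13.83% held CTTTGA and 28.08% held CCACCC on either strand. Among 17 windows of 12 matched genes out of the 15 that stood furthest toward Ccl5-low cells, 3 held CTTTGA and 10 held CCACCC. The windows with CCACCC belong to Dtx1, Foxp1, Lcn4, Lef1, Pik3ip1, Rgcc and Rgs10. Lef1 has several windows, not all printed here, and overlapping ones hold the same match. Windows are thus not separate genes, and the genes were chosen from these same data. Among 16 windows of the 12 matched genes furthest toward Ccl5-high cells, 1 and 3 did. The third motif searched, GGTGTGA, a T-box core, was in 3.33% of all windows, in 0 of the 17 and in 1 of the 16. Windows of 1 gene overlap, and a match describes letters and is not a binding site.

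The genome-wide comparison covered 4256 genes with 50 or more UMIs in all, each detected in 10% or more of Ccl5-low or Ccl5-high cells at both ages. At 7 weeks 218 of them (5.12%) were 2-fold or more higher in Ccl5-low cells and 371 (8.72%) were 2-fold or more lower. At 12 weeks 94 (2.21%) were higher and 355 (8.34%) lower. Higher at both ages were 46 genes (1.08%) and lower at both 130 (3.05%). The log2 ratios of the 2 ages had a Pearson correlation of 0.514 across genes, which are not independent replicates, and the points share the classes' depth and the rule. Genes that passed only through the class where they are high had to differ, and the counts describe these libraries only. The list counts below include such genes. Counts of list genes below stand beside 1.08% of all eligible genes higher and 3.05% lower at both ages.

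Ribosomal protein transcripts took a larger part of the UMIs of Ccl5-low cells, 41.7% and 43.7%, than of Ccl5-high cells, 35.7% and 32.5%. They took 38.8% and 36.5% in B cells and 33.7% and 34.8% in CD4 T cells with at most 3 Ccl5 UMIs. CPM of a gene depends on what else is in the total, and the median log2 ratio of all eligible genes was -0.12 at 7 weeks and -0.22 at 12 weeks. Without ribosomal protein, mitochondrial and Ccl5 UMIs in the total, log2 ratios moved up by 0.11 and 0.22. Genes 2-fold or more higher were then 239 beside 326 lower at 7 weeks and 189 beside 234 lower at 12 weeks, so that the higher ones made up 42.3% and 44.7% of genes past 2-fold in place of 37.0% and 20.9%. Ratios below are on the CPM scale over all UMIs.

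**Figure D2:**
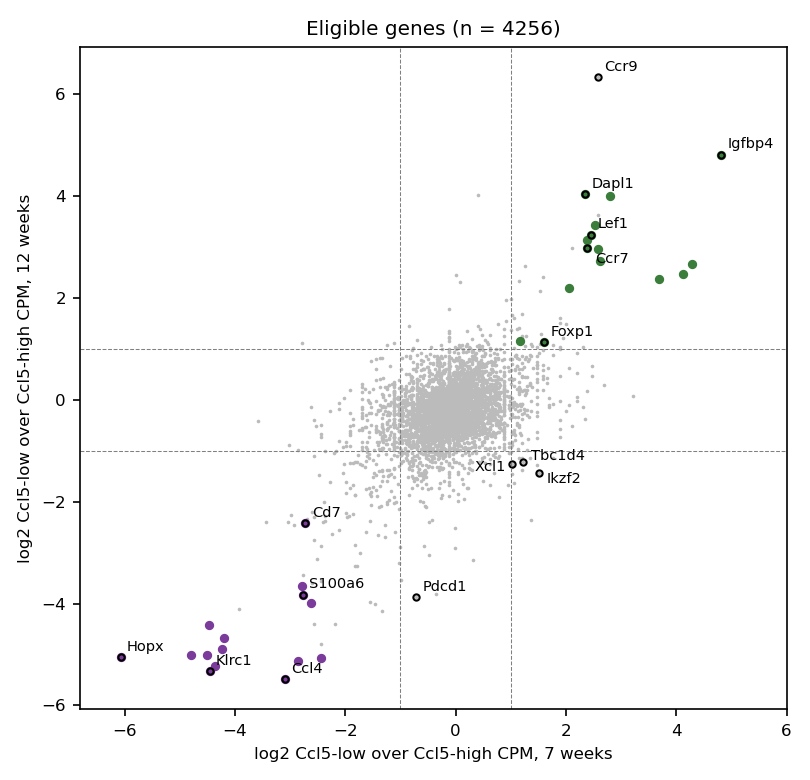
Log2 ratio of CPM in Ccl5-low over Ccl5-high CD8 T cells at 7 weeks (x axis) and 12 weeks (y axis) for 4256 eligible genes. Green and purple points are the 15 genes furthest toward either class, open circles mark the labelled genes and dashed lines mark 2-fold. Genes with 0 UMIs in a class are drawn with the floor of 3 counts. Igfbp4 is near 28-fold at both ages, and Ikzf2, Xcl1 and Tbc1d4 lie on the higher side at 7 weeks and the lower side at 12 weeks.

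The gene furthest toward Ccl5-low cells was Igfbp4, which encodes a secreted binding protein for insulin-like growth factors. It stood at 168 CPM (129 to 216) at 7 weeks and 223 CPM (194 to 254) at 12 weeks in Ccl5-low cells. Ccl5-high cells held 2 UMIs and 7 UMIs (5.97 and 7.92 CPM), a ratio of 28.2 (7.47 to 238) and 28.1 (13.4 to 70.8). Igfbp4 passed the filter only through Ccl5-low cells, so the filter fixed its direction, which is no finding. An Igfbp4 UMI was found in 22 of 61 and 88 of 187 Ccl5-low cells, and in 1.77% and 1.22% of B cells.

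Of 9 eligible genes of the homing and egress list, Ccr7, S1pr1 and Ccr9 were 2-fold or more higher in Ccl5-low cells at both ages. Ccr9 passed the filter only through Ccl5-low cells, so the filter fixed its direction, which is no finding. Ccr7 stood at 171 CPM (131 to 219) and 258 CPM (227 to 291), 5.204 (2.72 to 10.96) and 7.85 (5.33 to 12.0) times the Ccl5-high level. S1pr1 stood at 124 CPM (90.5 to 166) and 145 CPM (122 to 171), 2.31 (1.31 to 4.24) and 3.20 (2.24 to 4.66) times the Ccl5-high level. None was 2-fold lower at 7 weeks, and the integrin chains Itga4 and Itgal were at 12 weeks, at 0.363 and 0.449 times the Ccl5-high level. The list had a median log2 ratio of 0.21 and 0.22 beside -0.12 and -0.22 for all eligible genes. Il7r, the receptor for the survival cytokine interleukin 7, did not separate the classes: it stood at 113 and 133 CPM in Ccl5-low cells and at 176 and 128 CPM in Ccl5-high cells.

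Transcription factors of naive T cells separated the classes in part. Foxp1, which keeps naive T cells quiescent, stood at 309 CPM (254 to 372) and 225 CPM (196 to 257) in Ccl5-low cells, 3.04 (2.06 to 4.61) and 2.18 (1.70 to 2.82) times the Ccl5-high level. Satb1, a chromatin organiser of T cells, stood at 160 CPM (121 to 207) and 159 CPM (135 to 186), a ratio of 2.43 (1.47 to 4.18) and 2.38 (1.75 to 3.27). Both were also found in B cells, at 338 and 281 CPM for Foxp1 and 117 and 123 CPM for Satb1. With Lef1 they made 3 of 13 eligible genes of the list that were 2-fold higher at both ages, and none was 2-fold lower, with a median log2 ratio of 0.28 and 0.30. Tcf7, the close relative of Lef1, was less far apart, at 226 CPM (180 to 281) and 195 CPM (168 to 225) in Ccl5-low cells and 152 CPM (113 to 200) and 153 CPM (128 to 181) in Ccl5-high cells. Klf2, which drives S1pr1, stood 1.97 (1.18 to 3.38) and 1.49 (1.02 to 2.18) times higher in Ccl5-low cells.

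Other genes of resting T cells followed. Pik3ip1, an inhibitor of phosphoinositide 3-kinase, stood at 93.8 CPM (64.9 to 131) and 159 CPM (135 to 186), a ratio of 5.23 (2.17 to 15.3) and 8.78 (5.24 to 15.8). Actn1, an actin crosslinker, stood at 74.5 and 67.7 CPM and was 4.16 (1.68 to 12.3) and 4.60 (2.52 to 9.10) times the Ccl5-high level. Tdrp stood at 38.6 and 41.0 CPM, against 1 and 7 UMIs in Ccl5-high cells. With Dapl1 and Igfbp4 these were the 5 of 14 eligible genes of that list that were 2-fold higher at both ages, and no gene of it was 2-fold lower at either age. Tdrp and Igfbp4 passed the filter only through Ccl5-low cells, as did Dapl1 at 12 weeks, so these directions are no finding. Il6ra, the receptor for interleukin 6, stood at 68.9 CPM (44.6 to 102) and 85.1 CPM (67.8 to 105), a ratio of 5.77 (1.99 to 22.8) and 10.8 (4.99 to 27.6). It too passed the filter only through Ccl5-low cells.

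Among the 15 genes furthest toward Ccl5-low cells were also Lcn4, Rgcc, Dtx1, Rgs10 and Plaur. Lcn4 stood at 57.9 and 50.3 CPM beside 1 and 7 UMIs in Ccl5-high cells, and in B cells at 0 UMIs and 1 UMI. Rgcc stood at 108 and 123 CPM, 6.001 (2.52 to 17.3) and 7.77 (4.46 to 14.6) times the Ccl5-high level. Plaur, the urokinase receptor, stood at 41.4 CPM (23.2 to 68.2) and 90.3 CPM (72.4 to 111), while B cells held 76.2 and 114 CPM, so that its UMIs were no more frequent here than in B cells. Dtx1, a regulator of Notch signalling, and Rgs10, a regulator of G protein signalling, were 6.15 and 6.65 times and 2.25 and 2.23 times the Ccl5-high level. Lcn4, Plaur and Dtx1 passed the filter only through Ccl5-low cells, so the filter fixed their direction, which is no finding.

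**Figure D3:**
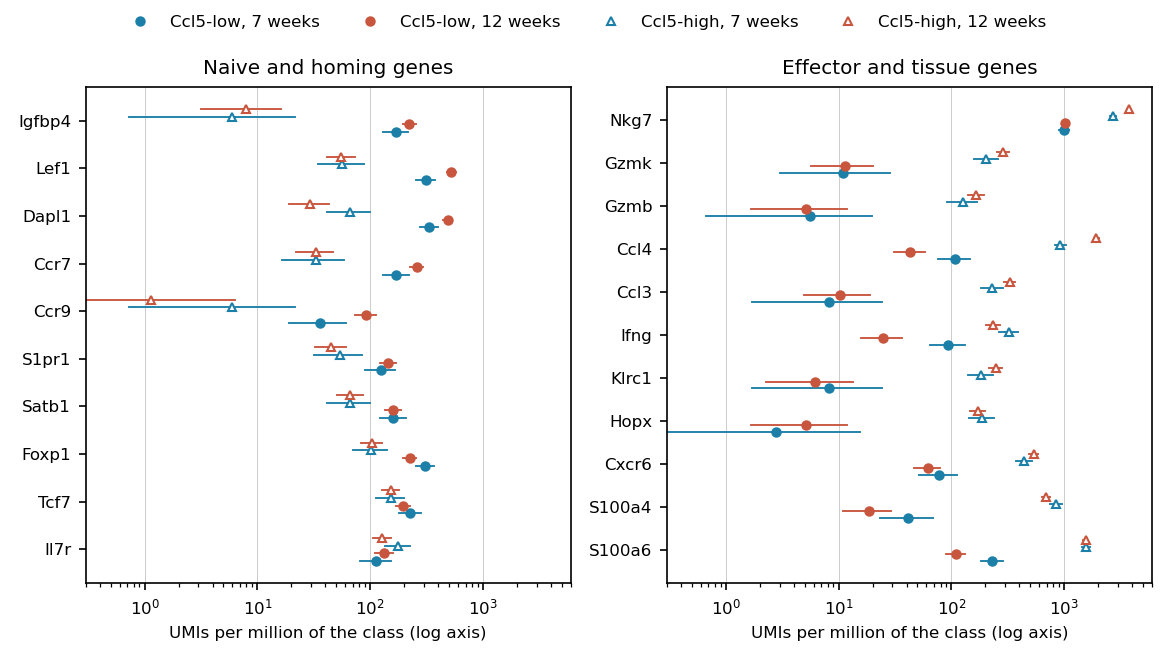
CPM of 21 genes (log axis) in Ccl5-low cells (filled circles) and Ccl5-high cells (open triangles), with 7 weeks in blue, 12 weeks in red and lines for exact Poisson 95% intervals, which end at the axis. Lef1 and Dapl1 sit between 312 and 525 CPM in Ccl5-low cells and at 65.7 CPM or less in Ccl5-high cells, while Tcf7 and Il7r lie close together.

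The counterpart was a set of effector and tissue genes that were low in Ccl5-low cells. Gzmk, a granzyme of effector memory cells, stood at 11.03 CPM (3.005 to 28.2) and 11.3 CPM (5.63 to 20.2) in Ccl5-low cells and at 203 CPM (158 to 258) and 287 CPM (253 to 325) in Ccl5-high cells, which were 18.4 (6.87 to 69.5) and 25.5 (14.0 to 51.7) times higher. Gzmb, the granzyme that triggers caspases in target cells, had 2 and 5 UMIs in Ccl5-low cells and 42 and 147 in Ccl5-high cells. A Gzmk UMI was found in 6.56% and 3.74% of Ccl5-low cells and in 2.65% and 1.22% of B cells. Of 8 eligible genes of the granule list, Gzmb, Gzmk, Nkg7 and Ctsw were 2-fold lower at both ages, beside 3.05% of all eligible genes. None was 2-fold higher. Gzmb and Gzmk passed the filter only through Ccl5-high cells, so the filter fixed their direction, which is no finding.

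Nkg7, a membrane protein of cytotoxic granules, was frequent in both classes. It stood at 1001 CPM (901 to 1109) and 1009 CPM (947 to 1074) in Ccl5-low cells, beside 2700 CPM (2527 to 2882) and 3732 CPM (3606 to 3862) in Ccl5-high cells and 19.8 and 34.0 CPM in B cells. A Nkg7 UMI was found in 96.7% and 94.1% of Ccl5-low cells, in 10.6% and 16.7% of B cells, and, after thinning to 3000 UMIs, in 89.5% and 88.2% of Ccl5-low cells and 2.75% and 11.02% of B cells. Nkg7 therefore separated the Ccl5-low class from B cells and, by level, from Ccl5-high cells. Ctsw, a lysosomal protease of cytotoxic lymphocytes, likewise stood at 378 and 282 CPM in Ccl5-low cells, 788 and 610 CPM in Ccl5-high cells and 15.2 and 8.12 CPM in B cells.

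Of 5 eligible effector cytokine and chemokine genes, Ccl4, Ccl3 and Ifng were 2-fold or more lower in Ccl5-low cells at both ages. The share over all eligible genes was 3.05%. Xcl1 stood at 2.03 times the Ccl5-high level at 7 weeks and at 0.416 times that level at 12 weeks. Ccl4 stood at 108 CPM (76.5 to 147) and 43.1 CPM (31.1 to 58.2) in Ccl5-low cells and at 923 CPM (823 to 1032) and 1923 CPM (1833 to 2017) in Ccl5-high cells. Of its 39 UMIs in Ccl5-low cells at 7 weeks, 32 came from 5 cells with 2 to 3 Ccl5 UMIs, where it stood at 331 CPM, beside 29.7 and 20.5 CPM in cells with 0 and 1. Ccl3 stood at 3 and 10 UMIs in Ccl5-low cells and 77 and 291 UMIs in Ccl5-high cells. Ccl3 passed the filter only through Ccl5-high cells, as did Ccl4 at 12 weeks, so these directions are no finding. Ifng, the gene of interferon gamma, stood at 93.8 CPM (64.9 to 131) and 24.6 CPM (15.8 to 36.6), 3.44 (2.32 to 5.22) and 9.56 (6.25 to 15.3) times lower than in Ccl5-high cells.

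Of 13 killer cell receptor genes, 7 fell below the filter. The 6 eligible ones were 2-fold lower in Ccl5-low cells at both ages, beside 3.05% of all eligible genes. Their median log2 ratio was -3.40 and -4.41. Klrc1, an inhibitory receptor of the NKG2 family, had 3 and 6 UMIs in Ccl5-low cells and 61 and 218 in Ccl5-high cells. Klrc2 had 2 and 6 UMIs beside 41 and 116, and Klre1 3 and 7 UMIs beside 52 and 189. Klrc1, Klrc2 and Klre1 passed the filter only through Ccl5-high cells, so the filter fixed their direction, which is no finding. Klrd1, the partner chain of the NKG2 receptors, was the exception in level: it stood at 157 and 176 CPM in Ccl5-low cells, with a UMI in 41.0% and 50.8% of them, beside 326 and 552 CPM in Ccl5-high cells and 4.57 and 8.49 CPM in B cells.

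Receptors and adhesion genes of memory and tissue T cells were lower as well. At both ages 10 of 14 eligible genes were 2-fold lower, beside 3.05% of all eligible genes, and none was higher. S100a4, a calcium-binding protein of motile memory cells, stood at 41.4 CPM (23.2 to 68.2) and 18.5 CPM (10.9 to 29.2) beside 848 CPM (752 to 953) and 688 CPM (634 to 745) in Ccl5-high cells. S100a6 stood at 229 CPM (182 to 284) and 110 CPM (90.0 to 133) beside 1559 and 1553 CPM. Cxcr6, a receptor of tissue-resident T cells, stood at 77.2 CPM (51.3 to 112) and 61.6 CPM (47.0 to 79.2) beside 439 and 537 CPM. Ccr2, a receptor for inflammatory chemokines, had no UMI in Ccl5-low cells at 7 weeks, so that Ccl5-high cells were at least 7.22-fold higher with a floor of 3 counts over the class. At 12 weeks it had 2 UMIs beside 63. Ccr2 passed the filter only through Ccl5-high cells, as did S100a4 at 12 weeks, so these directions are no finding. Cd44 stood at 38.6 and 22.6 CPM beside 101 and 97.3 CPM.

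Transcription factors of effector cells were lower for 4 of 6 eligible genes at both ages, beside 3.05% of all eligible genes. Hopx, a small homeodomain protein of effector cells, had 1 and 5 UMIs in Ccl5-low cells beside 62 and 151 in Ccl5-high cells, and B cells held more of it, at 27.4 and 28.4 CPM. Eomes, a T-box factor of memory cells, stood at 16.5 and 15.4 CPM beside 98.6 and 75.8 CPM. Hopx and Eomes passed the filter only through Ccl5-high cells, so the filter fixed their direction, which is no finding. Batf and Bhlhe40 stood at 0.390 and 0.235 times and at 0.342 and 0.279 times the Ccl5-high level. The other genes of the 15 furthest toward Ccl5-high cells were Lrrk1, Cd7 and Ctla2a. Cd7 stood at 88.2 and 101 CPM beside 582 and 538 CPM, Ctla2a at 49.6 and 66.7 CPM beside 340 and 842 CPM, and Lrrk1 at 0 and 3 UMIs beside 17 and 43. Lrrk1 likewise passed the filter only through Ccl5-high cells.

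Further lists are given by their counts at both ages, beside 1.08% of all eligible genes higher and 3.05% lower, a background at which a count of 0 or 1 in a list of this size is no result about the list. Of 14 genes of CD3 and proximal receptor signalling, only Sh2d2a, an adaptor of activated T cells, was lower at both ages, at 99.3 and 78.0 CPM beside 209 and 313 CPM. None of 11 glycolysis genes was apart at both ages. Gapdh stood at 706 and 495 CPM in Ccl5-low cells and 953 and 1157 CPM in Ccl5-high cells. Of 14 genes induced by the antigen receptor, none was apart at both ages, and Cd69 stood at 557 and 462 CPM beside 475 and 386 CPM. Of 9 type I interferon genes, Isg20 was lower at both ages (11.03 and 13.3 CPM beside 53.8 and 40.7) and none was higher. Of 18 genes of interferon gamma and MHC class I, only the GTPase gene Iigp1 was 2-fold higher at both ages, at 35.8 and 42.1 CPM beside 5.97 and 3.39 CPM, which are 2 and 3 UMIs. The restraint and quiescence list had more: of 19 genes, Tsc22d3, Pik3ip1 and Rgs10 were higher and Rgs1 and Gimap7 lower at both ages. Tsc22d3, which is induced by glucocorticoids, stood at 212 and 367 CPM beside 105 and 117 CPM.

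Markers of other cells were measured in the Ccl5-low class, and their part in the results was not tested unless a value is given. The 11 measured B cell genes summed to 52.4 and 50.3 CPM, beside 4922 and 5502 CPM in B cells, and the 7 MHC class II genes to 392 and 421 CPM beside 33290 and 38520. The 6 measured gamma-delta and innate-like T cell genes summed to 0 and 1.03 CPM, with Cd163l1, Sox13 and Il23r at 0. The thymocyte genes Rag1, Rag2 and Ptcra were at 0 at both ages, and no gene of the 5 eligible ones in the recent emigrant list was apart at both ages. The 11 natural killer and innate lymphoid genes, which include Eomes and Cd7, summed to 174 and 170 CPM, beside 956 and 770 CPM in Ccl5-high cells and 71.6 and 60.9 CPM in B cells, with Klrb1c and Il1rl1 at 0 at both ages. The 10 genes of the CD4 and regulatory T cell list, which include Ikzf2, Izumo1r and Tbc1d4, summed to 491 and 233 CPM in Ccl5-low cells, 209 and 282 CPM in Ccl5-high cells and 1893 and 1825 CPM in CD4 T cells with at most 3 Ccl5 UMIs. Of the same list, Cd40lg had 0 and 4 UMIs, Zbtb7b 2 and 3, and Foxp3 2 and 4. Transcripts of exocrine cells (13 measured genes) summed to 24.8 CPM at 7 weeks and 268 at 12 weeks, and those of endocrine cells (9 genes) to 49.6 and 134 CPM. In B cells they summed to 111 and 275 CPM and to 13.7 and 129 CPM.

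Detection differed over the Ccl5 scale. A Lef1 UMI was found at 12 weeks in 84.6% of CD8 T cells with no Ccl5 UMI, 84.3% with 1, 68.4% with 2 to 3, 62.5% with 4 to 9, 30% with 10 to 29 and 23.3% with 30 or more. For Ccr7 these shares were 70.1%, 66.7%, 47.4%, 37.5%, 40% and 8.53%, and for Gzmk 5.13%, 0, 5.26%, 18.8%, 35.0% and 67.4%. Cells with 4 to 9 Ccl5 UMIs, 8 and 16 in number and in neither class, lay between the classes for each of these 3 genes at 12 weeks. At 7 weeks the bins held 8 to 44 cells, and Ccr7 was found in 56.2%, 60%, 35.7%, 37.5%, 44.4% and 11.4% of them. Dapl1 in the cells with 2 to 3 Ccl5 UMIs stood at 176 CPM (102 to 282) at 7 weeks, beside 309 (230 to 405) and 534 CPM (399 to 700) in those with 0 and 1. At 12 weeks it stood at 278 CPM (188 to 394), beside 537 (479 to 599) and 461 CPM (384 to 548).

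**Figure D4:**
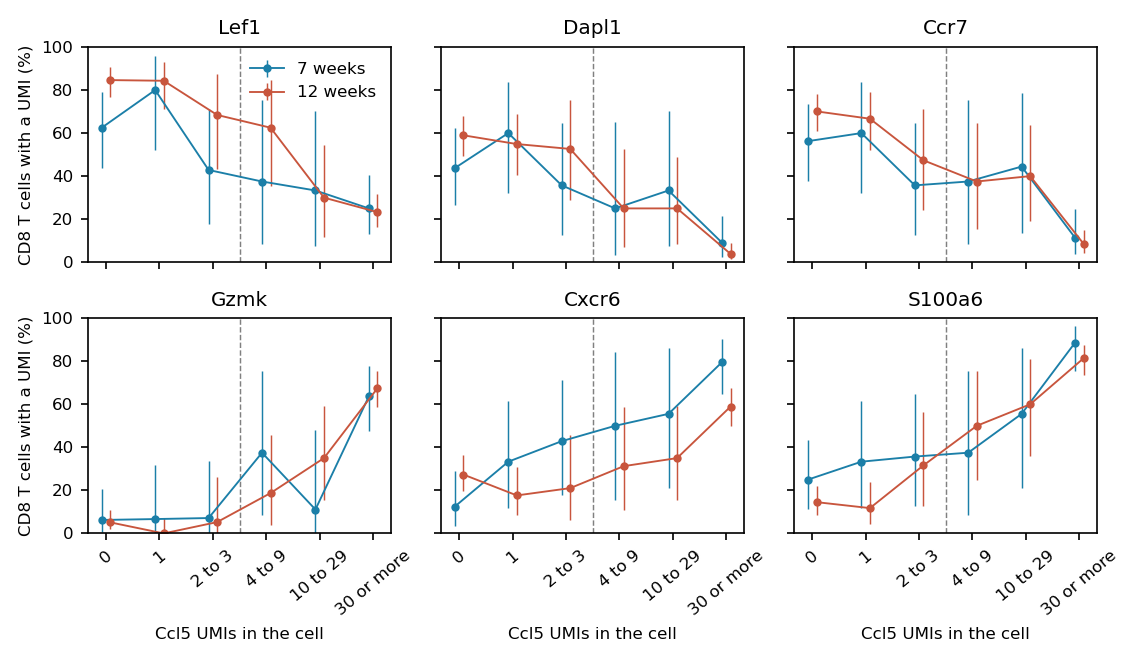
Percentage of CD8 T cells with a UMI of 6 genes by the number of Ccl5 UMIs in the cell, with 7 weeks in blue, 12 weeks in red, exact binomial 95% intervals and a dashed line at the upper limit of the Ccl5-low class. Lef1 at 12 weeks goes from 84.6% at 0 Ccl5 UMIs to 23.3% at 30 or more, and Gzmk from 5.13% to 67.4%.

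Naive transcripts tended to be found in the same Ccl5-low cells. Lef1 and Igfbp4 were found together in 20 of 61 and 80 of 187 cells, where 13.7 and 72.9 would follow from the separate frequencies. Ccr9 did not follow Dapl1 at 12 weeks, with 29 cells holding both beside 33.2. Itgae, the CD103 integrin chain, was found in 34 of 187 cells at 12 weeks, with Ccr9 in 15 of them (10.6 from the separate frequencies) and with Dapl1 in 11 (19.5). Deep cells hold more of every gene, which the separate frequencies do not take into account, so these counts are descriptions.

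Within Ccl5-low cells, 2580 genes were eligible for a comparison of 12 with 7 weeks. Of these 48 (1.86%) were 2-fold or more higher at 12 weeks and 63 (2.44%) were 2-fold or more lower, with a median log2 ratio of 0.03. In Ccl5-high cells 77 (2.98%) of the same genes were higher and 35 (1.36%) lower. Of the 63 lower genes, 14 (0.543% of those tested) were also 2-fold lower in Ccl5-high cells and 9 of these (0.349%) in B cells as well, while 22 (0.853%) had a ratio over 1 in Ccl5-high cells.

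Genes whose age ratio was alike in other cells included Glrx5, a mitochondrial glutaredoxin, at 102 CPM (71.8 to 141) at 7 weeks and 19.5 CPM (11.7 to 30.4) at 12 weeks. Its ratio was 0.191 in Ccl5-low, 0.212 in Ccl5-high and 0.242 in B cells. Ier5 had ratios of 0.299, 0.253 and 0.158, Tmem160 of 0.292, 0.321 and 0.313, and Lrrc58 of 0.337, 0.391 and 0.525. The same held in the other direction for pancreatic transcripts. Try5, a trypsin gene, and Gcg, the glucagon gene, had no UMI in Ccl5-low cells at 7 weeks and 57 and 55 UMIs at 12 weeks, at least 7.07-fold and at least 6.82-fold higher with a floor of 3 counts. Ctrb1 had 2 and 60 UMIs, a ratio of 11.2 (2.96 to 94.3). All 3 were also found in B cells at 12 weeks, at 62.4, 63.5 and 67.2 CPM.

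Lef1 and Ccr9 were higher at 12 weeks in Ccl5-low cells. Lef1 stood 1.69 (1.37 to 2.09) times higher at 12 weeks in Ccl5-low cells and 0.977 (0.565 to 1.76) times in Ccl5-high cells. Ccr9 stood 2.55 (1.42 to 4.97) times higher, with 2 and 1 UMIs in Ccl5-high cells, too few for a ratio, and the top 5 cells held 69.2% of its 13 UMIs at 7 weeks. After thinning to 3000 UMIs Lef1 was detected in 45.6% (32.4 to 59.3) and 72.2% (65.2 to 78.5) of Ccl5-low cells and Ccr9 in 8.77% (2.91 to 19) and 22.99% (17.2 to 29.7). In thinned B cells the shares were 5.50% and 0.612% for Lef1 and 0 and 0.204% for Ccr9. Thinned CD4 T cells with at most 3 Ccl5 UMIs held Lef1 in 23.4% (17.2 to 30.5) and 39.8% (34.8 to 45.0). Their shares were 5.99% and 14.7% for Dapl1, 22.2% and 32.9% for Ccr7, 50.3% and 40.4% for Tcf7, and 0 and 0.535% for Ccr9. More frequent Lef1 at 12 weeks was thus not particular to Ccl5-low CD8 T cells. Dapl1 stood 1.45 (1.19 to 1.79) times and Ccr7 1.51 (1.14 to 2.02) times higher at 12 weeks. Tcf7 (0.862, 0.662 to 1.13) and Satb1 (0.994, 0.731 to 1.37) had intervals that included 1. Ccnd2, a cyclin of early cell cycle entry, stood at 292 CPM (239 to 354) and 488 CPM (445 to 534).

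Of the other genes ranked highest at 12 weeks, Nsf, Tmem128, Mrpl34, Sptbn1 and Tuba4a were 2.45 to 3.91 times higher in Ccl5-low cells, from 6 to 14 UMIs at 7 weeks. In Ccl5-high cells their ratios lay between 0.774 and 1.40 and in B cells between 0.970 and 1.45. Their levels at 7 weeks were low, at 16.5 to 38.6 CPM, and rested on few cells.

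Pdcd1, Ikzf2 and Xcl1 were higher at 7 than at 12 weeks in Ccl5-low cells and lower at 7 than at 12 weeks in Ccl5-high cells. Within the Ccl5-low class, where 2.44% of eligible genes were 2-fold or more lower at 12 weeks, the genes lower at 12 weeks were 1 of 5 eligible inhibitory receptors, 2 of 10 antigen receptor response genes, 1 of 6 TNF receptor and costimulation genes, 0 of 4 granule genes and 3 of 4 effector cytokines and chemokines. Pdcd1, the inhibitory receptor PD-1, stood at 149 CPM (112 to 194) at 7 weeks and 21.5 CPM (13.3 to 32.9) at 12 weeks, a ratio of 0.145 (0.0830 to 0.244), while in Ccl5-high cells it stood at 245 and 316 CPM. Ikzf2, the transcription factor Helios, stood at 229 CPM (182 to 284) and 48.2 CPM (35.4 to 64.1), beside 80.6 and 130 CPM in Ccl5-high cells. At 7 weeks it was thus 2.84 (1.82 to 4.56) times higher in Ccl5-low than in Ccl5-high cells, and at 12 weeks 2.70 (1.91 to 3.87) times lower. Xcl1, a chemokine that draws cross-presenting dendritic cells, stood at 830 CPM (739 to 929) and 265 CPM (233 to 299), beside 409 and 637 CPM in Ccl5-high cells. B cells held no more than 9.14 CPM of any of these 3 genes.

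Rgs16, Tbc1d4 and Ifng had the same direction, with ratios of 12 over 7 weeks of 0.255 (0.172 to 0.377), 0.242 (0.145 to 0.399) and 0.263 (0.149 to 0.456) in Ccl5-low cells. In Ccl5-high cells the ratios were 1.51, 1.32 and 0.730. Tox, a transcription factor of chronically stimulated T cells, stood at 124 CPM (90.5 to 166) and 45.13 CPM (32.8 to 60.6) in Ccl5-low cells, beside 125 and 258 CPM in Ccl5-high cells. After thinning, Pdcd1 was detected in 14.0% (6.26 to 25.8) and 4.81% (2.22 to 8.94) of Ccl5-low cells and Ikzf2 in 33.3% (21.4 to 47.1) and 7.49% (4.15 to 12.2). In thinned B cells the shares were 2.75% and 1.84% for Pdcd1 and 0.917% and 0.612% for Ikzf2. CD4 T cells with at most 3 Ccl5 UMIs held both genes more often, at 39.5% and 30.2% for Pdcd1 and 43.1% and 31.6% for Ikzf2. Without thinning, the Ccl5-low shares were 23% and 6.42% for Pdcd1 and 39.3% and 11.2% for Ikzf2.

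At 7 weeks the 5 cells with most UMIs of a gene held 32.7% of the Lef1 UMIs. The same share was 85.4% for Xcl1, 81.4% for Tbc1d4, 71.6% for Rgs16, 67.6% for Ifng, 66.7% for Pdcd1, 57.8% for Tox and 43.4% for Ikzf2, which was found in 24 of 61 cells. Ccl5-low cells were sorted by how many of 7 genes, Pdcd1, Ikzf2, Xcl1, Tox, Tbc1d4, Rgs16 and Ifng, they held a UMI of. The genes were chosen after their values were seen, and what follows describes cells chosen by them. At least 3 of the 7 were found in 20 of 61 cells (32.8%, 21.3 to 46.0) at 7 weeks and in 15 of 187 (8.02%, 4.56 to 12.9) at 12 weeks. After thinning the shares were 26.3% and 5.35%. At 12 weeks 119 of 187 cells held none of the 7, and at 7 weeks 18 of 61.

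The cells with at least 3 of the 7 genes differed from the remaining Ccl5-low cells in transcripts outside those 7. A median of 1 of the 5 naive markers was found in them at both ages, beside 2 and 3 in the remaining cells, and 8 of 20 and 6 of 15 held none. Lef1 stood at 76.3 and 27.4 CPM beside 467 and 588 CPM, and Igfbp4 had 2 and 0 UMIs beside 59 and 217. Lag3, an inhibitory receptor, stood at 277 and 731 CPM beside 41.2 and 39.3 CPM, and Cd200 at 208 and 338 CPM beside 27.5 and 22.0 CPM. Izumo1r, the folate receptor FR4, stood at 201 and 329 CPM beside 27.5 and 47.4 CPM. S100a6 stood at 500 and 576 CPM beside 50.3 and 50.8 CPM. A Klrd1 UMI was found in 4 of 20 and 2 of 15 of these cells and in 21 of 41 and 93 of 172 of the remaining ones. Cd8b1 was found in 18 of 20 and 14 of 15, and Tcf7 in 11 and 9, while Foxp3 had 2 and 4 UMIs and Cd40lg 0 and 2. The CD4 and regulatory T cell list summed to 1006 and 978 CPM in these cells and 151 and 139 CPM in the remaining ones, and Ikzf2, Tbc1d4 and Izumo1r are among its genes. Zbtb7b of the same list had 0 and 1 UMI in these cells. Its level in CD4 T cells is not set beside this, so whether that is low cannot be read. The 2 and 4 Foxp3 UMIs were all those of the Ccl5-low class. The part of CD4 T cells with no captured Cd4 transcript was not tested. The median depth of the cells with at least 3 of the 7 genes was 5700 and 7181 UMIs, beside 5227 and 4846, and deeper cells pass a detection limit more easily.

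Without these cells the age difference of several genes was smaller. Lef1 stood 1.26 (1.02 to 1.57) times higher at 12 weeks in place of 1.69, Dapl1 1.32 (1.05 to 1.67) in place of 1.45, Igfbp4 0.929 (0.694 to 1.26) in place of 1.32 Ccr7 1.26 (0.919 to 1.75) in place of 1.51, and Ccr9 2.04 (1.09 to 4.24) in place of 2.55. S100a6 stood at 1.01 (0.513 to 2.17) in place of 0.480 (0.357 to 0.647). Genes 2-fold or more lower at 12 weeks were 28 in place of 63 of 2580. Eligible genes were chosen anew from the remaining cells, so the total behind the 28 can differ. The 7 genes that chose the removed cells were themselves lower at 12 weeks, so part of this fall was built in. Ikzf2, one of the genes that chose the cells, still stood at 0.295 (0.149 to 0.587). Glrx5 (0.179), Ier5 (0.273) and Lrrc58 (0.330) stood close to their ratios with all cells, while Tmem160 stood at 0.544 (0.273 to 1.14) in place of 0.292.

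**Figure D5:**
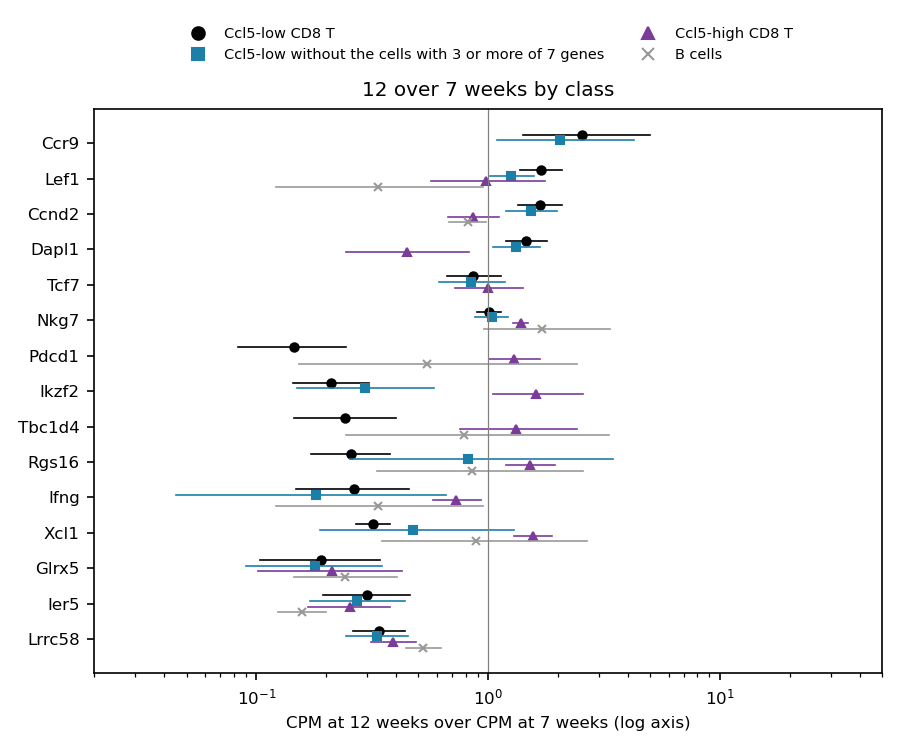
Ratio of CPM at 12 weeks over 7 weeks (log axis) for 15 genes in Ccl5-low cells (circles), Ccl5-low cells without those with 3 or more of the 7 genes (squares), Ccl5-high cells (triangles) and B cells (crosses), with 95% intervals for counting error, which end at the axis. Ratios from fewer than 10 UMIs in both libraries together are not drawn. Pdcd1, Ikzf2 and Xcl1 lie at 0.145, 0.211 and 0.319 in Ccl5-low cells and over 1 in Ccl5-high cells, while Glrx5, Ier5 and Lrrc58 lie at 0.525 or less in all classes drawn.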

How the data were processed

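Single-cell 3′ RNA libraries of CD45.1+ islet cells from NOD mice at 7 and 12 weeks, 1 per age, were analysed from UMI count matrices. The authors deposited raw counts per gene and barcode, and the submitters' processing notes name Cell Ranger 1.3.1 and mm10; the gene models behind the counts are not named in the material used. UMIs were summed per library and class and scaled to CPM. Levels have exact Poisson intervals, shares Clopper-Pearson intervals, differences of shares Newcombe intervals and ratios exact conditional binomial intervals, all at 95%. They cover counting error alone: there is 1 library per age, so no p-value is given. When 1 class had 0 UMIs, the ratio took a floor of 3 counts over that class as a bound.

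Genes entered the class comparison with a UMI in 10% or more of the cells of 1 class at both ages and 50 UMIs in all, without receptor segments, ribosomal protein, mitochondrial, rule and unnamed genes. The text names, but for genes not reported here, the 15 genes furthest toward each class at both ages, ranked on the interval bound nearest 1, the 10 furthest in each direction by age, the marker genes and members of the lists. The age ranking was also made without exocrine, endocrine and red cell genes. Genes outside this rule, and the 7 genes used to sort Ccl5-low cells, were picked after their values were seen. The cells and lists were chosen with earlier results of these data known. Thinning drew 3000 UMIs per cell and left out 4 Ccl5-low cells at 7 weeks and 0 at 12 weeks. The ratio intervals were run on simulated Poisson counts, the model from which they are derived. That run cannot show how they hold for genes whose UMIs cluster in few cells. The genes not reported here were also left out of the lists and marker counts. Promoter sequences and coordinates come from RefSeq and GRCm38.p6. Python 3.11.15 with numpy 2.4.6, scipy 1.17.1, pandas 2.3.3, scikit-learn 1.9.0 and matplotlib 3.10.9 was used.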

Additional observations from a re-analysis of the deposited data

Results flagged for a closer look

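Listed here are 6 genes whose 12-week over 7-week ratio of CPM lay on opposite sides of 1 in Ccl5-low and Ccl5-high CD8 T cells. They are a selection and not all such genes. Of 2580 eligible genes, 22 (0.853%) were 2-fold or more lower in Ccl5-low cells with a ratio over 1 in Ccl5-high cells. The difference between the classes was not tested. Pdcd1 had a ratio of 0.145 in Ccl5-low cells and 1.29 in Ccl5-high cells. Ikzf2 had 0.211 and 1.61, Rgs16 0.255 and 1.51, and Xcl1 0.319 and 1.56. Ccl4 had 0.401 and 2.08, but its log2 ratio in Ccl5-low cells turned to 0.58 with at most 1 Ccl5 UMI and to 0.47 with none. Dapl1 ran the other way, with 1.45 in Ccl5-low cells and 0.448 in Ccl5-high cells. With 1 library per age, no ratio has a replicate behind it.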

How the results depend on the processing

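No paired analysis was possible because each age has 1 library and no replicate number. Of the values that answer a comparison, 154 stayed within their limits under the alternatives and 62 moved. Of single-gene values, 1878 stayed, 180 moved and 20 took the other sign. Among the 20, 5 did so only against the floor of 3 counts under the alternative. Those of Ccr2 and Lrrk1 by age started from a main value that itself uses the floor. The causes were not tested except where a setting itself removes cells or genes. Eligible genes were chosen anew under each setting. Where a setting changes the cells, the counts or the gene filter, gene counts have other totals. Those counts cannot be read as shares beside the main ones.

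With Ccl5-low set at 1 UMI or fewer, the share of CD8 T cells was 38.5% at 7 weeks and 47.7% at 12 weeks, and the log2 ratio of 12 over 7 weeks turned to 1.11 for S100a4 and 0.58 for Ccl4. With no Ccl5 UMI the shares were 26.2% and 33.2%, genes 2-fold higher and lower at 12 weeks within the class were 23 and 34, and Ccl4 was 0.47. With 1 Cd8 UMI as the minimum, 75 genes were higher at 12 weeks within the class. The age log2 ratio was then 2.5 for S100a4, 0.14 for S100a6, 0.32 for Ccr2 and 1.26 for Lrrk1. In the main setting Ccr2 and Lrrk1 had no UMI in Ccl5-low cells at 7 weeks. Their main ratios rest on the floor of 3 counts, so these values show no change of direction. Thinned to 3000 UMIs, 54 genes were higher and 221 lower than in Ccl5-high cells at 12 weeks, 24 higher at both ages, and 27 lower at 12 weeks within the class.

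Without cells that held 2 or more UMIs of other cell types' genes, 17 and 35 Ccl5-low and 7 and 18 Ccl5-high cells were left. Their share was 70.8% and 62.5%, a difference of -8.33 points. Genes higher and lower were 71 and 53 at 7 weeks, 30 and 54 at 12 weeks and 9 and 12 at both, with 2 and 6 by age. Naive and homing genes higher at both ages were 5, and cytotoxic and effector genes lower at both were 2. Single-gene values under this setting rest on few UMIs. For Lcn4, Il6ra, Tdrp and Actn1 at 7 weeks and Dtx1 at 12 weeks the Ccl5-high cells had 0 UMIs, so the value sets 2 to 6 UMIs against the floor of 3 counts and is a lower bound that shows no change of direction. At 7 weeks Ccr9 had 1 UMI in each class, Tbc1d4 4 and 3, and Ifng 23 and 8. Log2 low over high at 7 weeks was -1.29 for Lcn4 and Ccr9, -0.87 for Il6ra and Tbc1d4, -1.87 for Tdrp, -0.29 for Actn1 and 0.24 for Ifng; at 12 weeks Dtx1 was -0.36, and Tuba4a by age was -0.10. A limit of 10 UMIs, added after seeing the data, removed 1 and 1 Ccl5-low cells and moved no comparison.

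With ribosomal protein, mitochondrial and Ccl5 UMIs out of the total, 189 genes were higher and 234 lower at 12 weeks. Without the gene filter the counts higher and lower were 1288 and 1696 at 7 weeks, 1183 and 1894 at 12 weeks, 204 and 470 at both, and 666 and 2426 by age. With 25% of cells and 200 UMIs they were 24 and 50, 19 and 93, 13 and 37, and 0 and 6. Both filter settings change the number of eligible genes, so more or fewer genes here is not a larger or smaller share. At 1.5-fold they were 533 and 860, 318 and 980, 122 and 381, and 197 and 207. At 3-fold they were 61 and 125, 30 and 131, 18 and 55, and 4 and 9.

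Without the cells holding 3 or more of the 7 genes, a setting chosen after seeing the data, the 7-week share was 40.2%, 564 genes were lower at 7 weeks and 223 at both, and 28 were lower by age. Log2 low over high at 7 weeks was -3.48 for Xcl1 and -3.47 for Tbc1d4, and by age Tbc1d4 was 0.60 and S100a6 0.01. Genes at a few UMIs per class, such as Ccr9 at 7 weeks, are limited by depth.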
